A study of Mus musculus with 4 samples.

Results

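This account covers the collagens, the basement membrane proteins and the proteins that modify collagen in 3T3-F442A adipocytes, fat cells grown from a mouse preadipocyte line. The members are 38 genes fixed by name, each measured by the Affymetrix probe sets whose platform annotation names that gene and no other. Of the 38, 36 were measured, on 63 probe sets, among 12393 genes on 22626 probe sets in all. Loxl2 and Fbn1 had no probe set of their own and are not analysed here. The measured members were 7 fibrillar collagen genes, 6 other collagen genes, 14 basement membrane genes, 8 genes of collagen-modifying proteins and Eln, the elastin gene.

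Collagens are triple helices of 3 chains. Their prolines and lysines are hydroxylated inside the endoplasmic reticulum, and the procollagen ends are cut off outside the cell. Lysyl oxidases then cross-link the fibrils. Basement membranes are sheets of collagen IV and laminin joined by nidogens and perlecan, and every mature fat cell is wrapped in one. Fibroblast-like preadipocytes make mainly fibrillar matrix, and the shift from that matrix to a basement membrane is a known part of fat cell formation.

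The study compared 2 arrays of cells labelled shGFP, which carried a control hairpin RNA, with 2 arrays labelled shTRPV4, which carried a hairpin against the calcium-permeable cation channel gene Trpv4. Both hairpins came by overnight infection with a retrovirus, and infected preadipocytes were selected in puromycin at 2 ug/ml for 2 days, so both groups are selected populations of 1 cell line. All cells grew in DMEM with 10% serum, and at confluence were given 850 nM insulin for 8 days, with rosiglitazone, an activator of the fat cell receptor PPAR gamma, for the first 2 days. The labels name no hairpin sequence and do not say whether replicates were separate infections, cultures or hybridisations, so the p-values rest on array-to-array spread that could be purely technical.

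Trpv4 itself read 43.7 and 93.8 in shGFP and 80.1 and 79.5 in shTRPV4 on its only probe set, a log2 difference of 0.32 (95% interval −0.55 to 1.19, limma adjusted p = 0.55). Both shTRPV4 readings lay between those of shGFP, so these arrays do not settle whether Trpv4 fell. The part of the transcript that the probe set reads relative to the hairpin is unknown here, and both group names below stand for labels only. The adipocyte label fitted the readings of most of 13 measured fat cell markers. The exception was Acaca, which read 21.0 and 19.1 as means of shGFP and shTRPV4, below the median level of the probe sets. Adipoq read 11800 and 13731 and Fabp4 18160 and 19384 as means of the same groups. Adipoq was not called (0.16). Fabp4 was the brightest probe set on all 4 arrays, so quantile normalization gave it the same value on each. Its normalized difference of 0.00 was fixed by that step and says nothing of a change. As deposited it read 18222 and 18099 in shGFP and 19142 and 19625 in shTRPV4. Of the 13, 5 were higher in shTRPV4 (Plin4, Pparg, Cebpa, Slc2a4 and Dgat2) and 0 lower, 3 higher as deposited. Their summed readings were 61560 to 61667 in shGFP and 68158 to 71757 in shTRPV4. These sums, like those below, add deposited readings of unlike probe sets. The brightest weigh most, so a sum does not show a shift of a whole list. By sign, 8 of the 13 differences were positive and 4 negative. Car3 read lower on both shTRPV4 arrays without a call (−0.89, limma adjusted p = 0.079). The other negative ones were Cidec (−0.14), Acaca (−0.06) and Lpl (−0.05). Of 15 markers of preadipocytes and fibroblasts, none of them a member, 5 were lower (Dlk1, Pdgfra, Cd34, Thy1 and Sfrp2) and 0 higher. Of their differences 10 were negative and 5 positive (Vim, Fap, Ebf1, Zfp423 and Wnt10b). Their sums were 41975 to 42839 and 36538 to 37125. The largest falls in reading were those of Dlk1 (5275 and 2215 as group means) and Pdgfra (4333 and 1792). Over all genes 5.33% were called higher and 6.0% lower. Of 7 proliferation markers, 3 were lower, with sums of 4253 to 4526 and 3182 to 3252. The part of these shifts in the results on matrix genes was not tested, and fewer cells of a type and less RNA per cell cannot be told apart in such samples. Of 8 endothelial markers, 0 were called (3 at an unadjusted p under 0.05 in limma) and all read below the median level of the probe sets, with sums of 125 to 138 and 139 to 143. Of 6 muscle markers 1 was higher and 5 read below that median (sums of 499 to 537 and 644 to 655), and of 10 macrophage markers 2 were higher and 3 lower, with 9 below it (sums of 979 to 1083 and 683 to 738). No marker on these lists was at the lowest deposited value of 1 on all 4 arrays.

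Levels are deposited intensities, as the value on each array or as mean ± SD (n = 2). Differences are shTRPV4 minus shGFP in quantile-normalized log2(intensity + 16), a scale that makes the change of a dim probe set look smaller than it is, and a gene is called where limma's Benjamini-Hochberg adjusted p over all probe sets is under 0.05. Whether groups overlap is counted on the normalized scale. A gene with several probe sets is represented by the brightest. The intensities of different probe sets are not comparable as amounts of RNA. Of the 36 members, 2 were higher in shTRPV4 (Col15a1 and Col5a3) and 4 lower (Col16a1, Col5a2, Loxl1 and Lox), while 30 were not called. Over all 12393 genes 5.33% were called higher and 6.0% lower, 11.3% in either direction, so the members' share lay near the background. Their median difference was −0.01, against 0.02 over all genes. On that normalized scale the 2 groups did not overlap for 13 of the 36 members that were higher and 15 that were lower. The shares of all genes were 33.2% and 27.7%. Lamb1 counts as lower there, yet its deposited readings were higher on both shTRPV4 arrays (6375 and 6515 in shGFP, 6547 and 6676 in shTRPV4). Col3a1, Lama5 and Eln, also counted there, overlapped as deposited. The median absolute difference over the members was 0.07 between arrays of a group and 0.16 to 0.26 between arrays of different groups. The differences of the members were small, and only Col15a1 and Eln had estimates near a doubling, the latter with a wide interval.

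**Figure D1:**
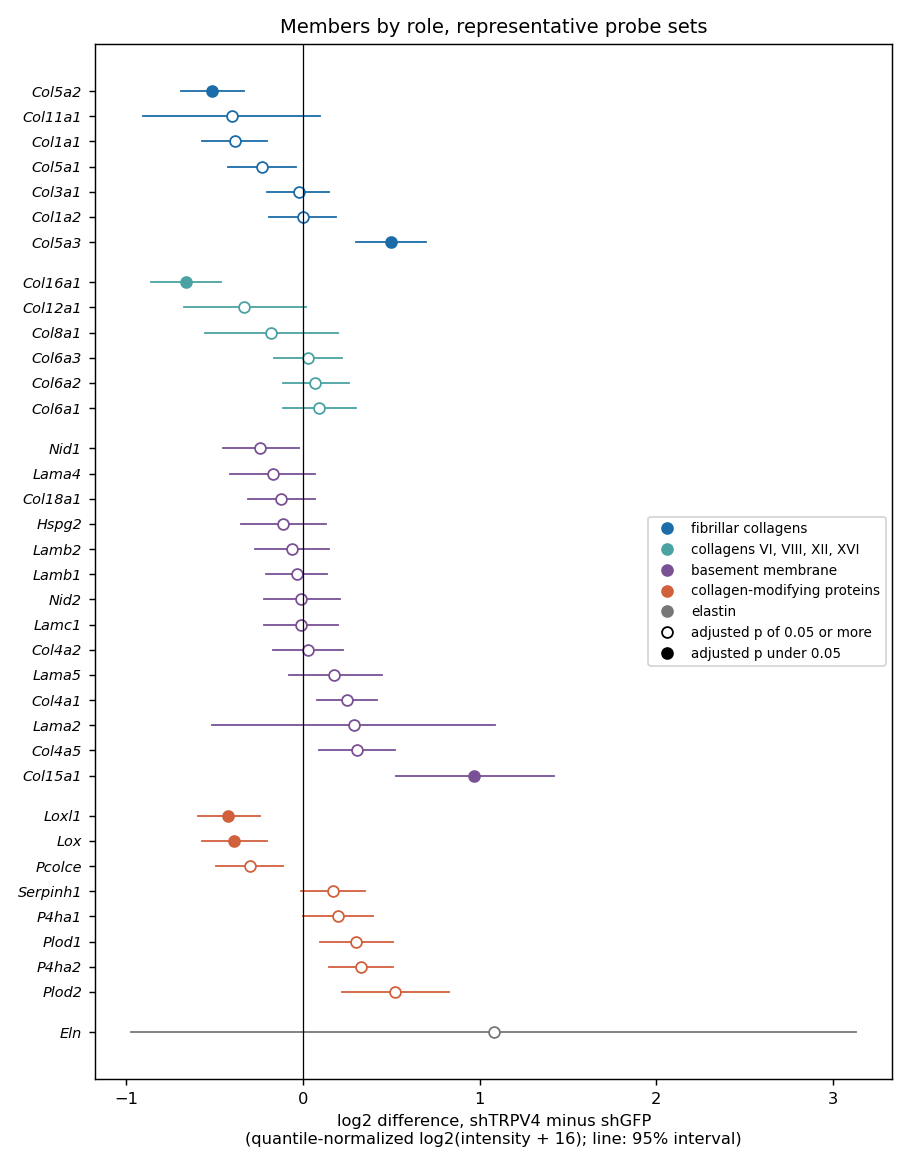
Log2 difference of each measured member, shTRPV4 minus shGFP, with its 95% interval, by role; filled points passed limma's adjusted p of 0.05. Col15a1 and Col5a3 lie to the right of 0 and Col16a1, Col5a2, Loxl1 and Lox to the left, while most basement membrane genes lie close to 0.

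The upstream sequences of 6 members are shown. The first 3 are the called members for which a RefSeq window was kept (none was for Col5a2, Lox and Loxl1). The other 3 are hydroxylase genes, all of which read higher on both shTRPV4 arrays. Each is the 250 bases before the RefSeq start of the gene in GRCm38.p6, written 5′ to 3′ on the gene's strand. The capitals mark 4 motifs searched on both strands: TATAAA (the TATA box), CCAAT (the CCAAT box), GGGCGG (the GC box) and the core of the hypoxia response element, ACGTG or GCGTG. These windows lie at chr4:47207762-47208011 (plus strand), chr9:20815068-20815317 (minus), chr4:130047590-130047839 (plus), chr10:59323046-59323295 (plus), chr11:54100674-54100923 (plus) and chr4:147936777-147937026 (minus).
Col15a1: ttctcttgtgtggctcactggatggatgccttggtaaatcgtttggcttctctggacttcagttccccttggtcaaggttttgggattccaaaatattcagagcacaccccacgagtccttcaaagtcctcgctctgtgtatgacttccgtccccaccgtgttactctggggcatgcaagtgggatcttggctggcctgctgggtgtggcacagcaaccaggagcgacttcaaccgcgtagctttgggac
Col5a3: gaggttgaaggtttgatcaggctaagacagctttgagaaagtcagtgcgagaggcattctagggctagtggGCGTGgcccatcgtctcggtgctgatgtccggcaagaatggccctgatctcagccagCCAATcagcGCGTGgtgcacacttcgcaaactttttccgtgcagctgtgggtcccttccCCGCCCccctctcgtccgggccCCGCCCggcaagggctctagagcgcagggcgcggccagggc
Col16a1: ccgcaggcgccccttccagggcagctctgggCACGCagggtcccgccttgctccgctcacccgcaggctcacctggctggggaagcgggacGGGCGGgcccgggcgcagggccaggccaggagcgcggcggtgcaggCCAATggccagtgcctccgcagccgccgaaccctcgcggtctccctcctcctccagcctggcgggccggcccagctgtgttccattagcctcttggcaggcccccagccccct
P4ha1: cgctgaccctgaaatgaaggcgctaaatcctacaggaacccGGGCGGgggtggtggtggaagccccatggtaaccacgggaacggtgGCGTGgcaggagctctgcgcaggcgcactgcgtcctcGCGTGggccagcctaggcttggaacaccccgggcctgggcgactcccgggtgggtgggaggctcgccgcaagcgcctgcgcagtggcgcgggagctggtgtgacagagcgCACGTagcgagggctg
P4ha2: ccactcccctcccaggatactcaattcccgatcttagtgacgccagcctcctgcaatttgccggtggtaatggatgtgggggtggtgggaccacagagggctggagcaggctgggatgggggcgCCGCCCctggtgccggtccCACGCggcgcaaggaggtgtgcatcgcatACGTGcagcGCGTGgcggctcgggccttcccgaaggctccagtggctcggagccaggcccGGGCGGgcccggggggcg
Plod1: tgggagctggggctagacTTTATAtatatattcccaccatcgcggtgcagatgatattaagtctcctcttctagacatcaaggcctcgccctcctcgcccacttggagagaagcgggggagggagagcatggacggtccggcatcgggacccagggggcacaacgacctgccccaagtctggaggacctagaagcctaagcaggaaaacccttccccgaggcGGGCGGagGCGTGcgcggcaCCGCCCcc

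The Col15a1 window held 0 matches to any of the 4 motifs, in 53.6% G and C. Those of Col5a3 and Col16a1 each held 1 CCAAT, with 2 and 1 GGGCGG and 2 and 1 matches to the hypoxia core. P4ha1 and P4ha2 each held 3 matches to the hypoxia core in windows of at least 69.6% G and C, and Plod1 held 1, together with 1 TATAAA and 2 GGGCGG. Matches that overlap, such as ACGTG with its reverse complement, are each counted. Of the 26 measured members with a window kept, 14 held the hypoxia core on their first listed start, 10 CCAAT, 19 GGGCGG and 2 TATAAA. Of 32851 windows of this length in the table, 38.6% held the hypoxia core, 33.8% CCAAT, 32.7% GGGCGG and 12.4% TATAAA. A match is a run of letters and not evidence of a bound factor, and a motif rich in G and C occurs more often in windows rich in them.

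The fibrillar collagen genes encode the chains of the rope-like collagens, types I, III, V and XI. Of the 7 measured, 1 was called lower and 1 higher, and both encode chains of collagen V, a minor collagen that sits inside collagen I fibrils and limits their diameter. Col5a2 read 8216 and 8466 in shGFP and 6119 and 6026 in shTRPV4. Both shTRPV4 arrays lay below both shGFP arrays, a fall of 0.51 on the log2 scale (SE 0.07, limma adjusted p = 0.033), and the second Col5a2 probe set fell by 0.50 (adjusted p = 0.045). Col5a3, the chain of a less common form of collagen V, read 3336 and 3602 in shGFP and 4997 and 4899 in shTRPV4. It rose by 0.50 (SE 0.07, adjusted p = 0.038), with both shTRPV4 arrays above both shGFP arrays. Its other probe set, which read at most 3.05 on any array, did not follow (−0.13, adjusted p = 0.25), and with its probe sets averaged Col5a3 differed by 0.18 and was not called. Col5a1, the chain that the common forms of collagen V share, differed by −0.23 (SE 0.07, adjusted p = 0.12), and its other probe sets by −0.30 and −0.24. The difference between these 3 chains was not tested. The Col5a2 call was lost with median centring (−0.36, adjusted p = 0.054).

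Collagen I and III are the bulk of fibrillar matrix, and their genes read near the top of the arrays. Col3a1 was the brightest fibrillar member, at 15492 and 15760 in shGFP and 15744 and 15978 in shTRPV4, readings that overlapped as deposited. Its difference was −0.02 (95% interval −0.20 to 0.15) after quantile normalization and 0.02 with the values as deposited. Col1a2 read 15104 ± 614 and 15668 ± 652 with a difference of 0.00 (−0.19 to 0.19), and 0.05 as deposited. These representative probe sets of both genes lay at the 99.9th percentile of level, and whether differences are compressed there was not tested. The dimmer probe sets of both genes gave −0.14 for Col3a1 (adjusted p = 0.25) and −0.17 for Col1a2 (adjusted p = 0.17). Both dimmer probe sets read lower on both shTRPV4 arrays than on both shGFP arrays. Col1a1, the partner chain of Col1a2, read 6762 and 7007 in shGFP and 5545 and 5443 in shTRPV4. Both shTRPV4 arrays lay below, by −0.38 (SE 0.07), but the adjusted p of 0.0505 was just past the threshold, and the other probe set gave −0.42 (adjusted p = 0.055). Col1a1 was called in 5 of 14 other settings, all with the same sign. Col11a1, a chain of cartilage-type fibrils, read 17.4 ± 3.84 and 9.35 ± 4.86, around the offset of 16, and differed by −0.40 (95% interval −0.90 to 0.10). The fibrillar median was −0.23 (−0.22 as deposited and −0.12 with median centring, where 3 of 7 were positive instead of 1).

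**Figure D2:**
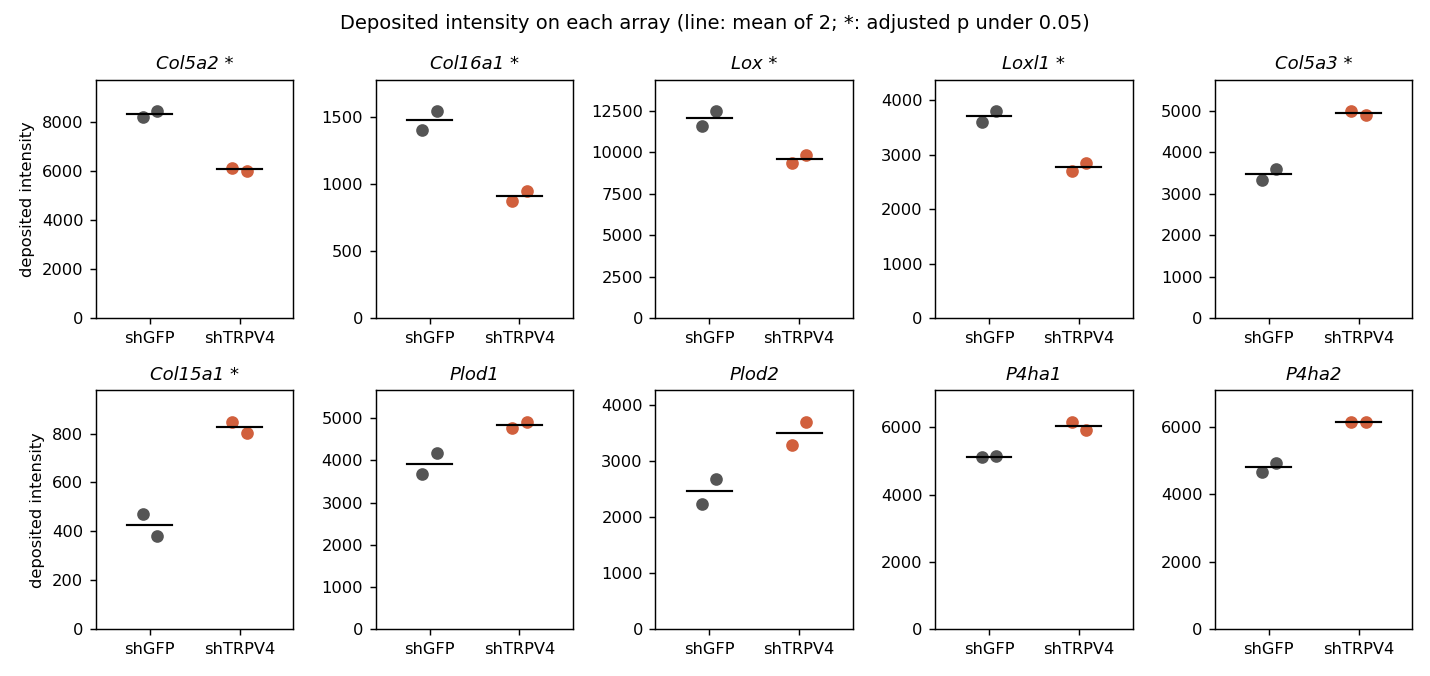
Deposited intensity (vertical axis, from 0) on each of the 4 arrays for the 6 called members, marked with a star, and the 4 hydroxylase genes; the line is the mean of 2 arrays. The groups do not overlap in any of the 10 panels, and the largest step relative to its mean is that of Col15a1, from 427 to 825.

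Among the other collagens, Col16a1, which encodes a fibril-associated chain, was the only one of 6 called. It read 1403 and 1545 in shGFP and 875 and 944 in shTRPV4. Both shTRPV4 arrays were lower, a fall of 0.66 (SE 0.07, limma adjusted p = 0.026). This call was kept with the values as deposited (−0.69) and with median centring (−0.59). Col12a1, another fibril-associated chain, read 55.1 and 73.0 in shGFP and 44.1 and 44.7 in shTRPV4, without overlap, but its difference of −0.33 was not called (95% interval −0.67 to 0.02). Col8a1, a short-chain collagen of endothelial and corneal sheets, read 153 ± 28.2 and 123 ± 9.43 (−0.18, interval −0.55 to 0.20).

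Collagen VI forms beaded filaments around fat cells. Its chain genes Col6a1, Col6a2 and Col6a3 differed by 0.09, 0.07 and 0.03, and 0 of the 3 were called (0 at an unadjusted p under 0.05 in limma). Col6a3, the brightest of them, read 9595 and 10048 in shGFP and 10033 and 10970 in shTRPV4, so the groups overlapped. Its 95% interval ran from −0.16 to 0.22, which ends short of the size of the Col5a2 difference. Col6a1 and Col6a2, which are neighbours on the chromosome, read 8176 ± 179 and 9147 ± 648, and 8942 ± 42.9 and 9877 ± 576. The group median of collagen VI was 0.07, and 0.14 as deposited and 0.24 with median centring.

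Among the basement membrane genes only Col15a1 was called. Of 14, 1 was called higher and 0 lower, and 4 were at an unadjusted p under 0.05 in limma. Over all 12393 genes 4102 were at such a p. The median of the 14 was −0.01, and with the values as deposited or median centred it was 0.02 or 0.12. Col15a1 encodes the collagen XV chain, which links the basement membrane to the fibrils beneath it. It read 472 and 382 in shGFP and 849 and 801 in shTRPV4, 427 ± 64.1 against 825 ± 34.2. Both shTRPV4 arrays were far above both shGFP arrays, a rise of 0.97 or 1.96-fold on the log2(intensity + 16) scale (SE 0.16, 95% interval 0.53 to 1.42, limma adjusted p = 0.046). The estimate ran from 0.79 to 1.17 with any 1 array left out. Col18a1, the gene of the closely related collagen XVIII, differed by −0.12 (SE 0.07, adjusted p = 0.32), and by 0.03 on its other probe set.

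Collagen IV is the network collagen of basement membranes. Its brightest gene here, Col4a1, read 9956 and 10349 in shGFP and 12323 and 13012 in shTRPV4, higher on both shTRPV4 arrays but not called (0.25, SE 0.06, adjusted p = 0.088). With median centring it was called (0.42, adjusted p = 0.041). Its other probe set gave 0.06 (adjusted p = 0.61). Col4a2, its partner chain, read 7350 ± 420 and 7844 ± 300 and differed by 0.03 (95% interval −0.17 to 0.23). The 2 genes lie head to head on opposite strands, and their RefSeq starts in GRCm38.p6 are 21 bases apart. By these starts the first bases of the 2 transcripts overlap, with no gap between the genes. Col4a5, a chain of the X-linked collagen IV pair, read 2934 and 2800 in shGFP and 3580 and 3519 in shTRPV4, again higher on both (0.31, SE 0.08, adjusted p = 0.089), and its other probe set gave 0.31. The 3 genes had positive differences under all 3 scalings.

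Laminins are the cross-shaped trimers that cells bind through integrins. Of 6 laminin chain genes, 0 were called in either direction, with 0 also at an unadjusted p under 0.05 in limma. Lamb1 and Lamc1, which encode the beta and gamma chains shared by most laminins, differed by −0.03 (95% interval −0.21 to 0.14) and −0.01 (−0.22 to 0.20). Lama4, the alpha chain typical of fat and vessels, read 1533 ± 53.6 and 1332 ± 106 (−0.17, −0.41 to 0.07), and 0.15 on its dimmer probe set. Lamb2 differed by −0.06 and Lama5 by 0.18. Lama2, the muscle-type alpha chain, read 25.8 and 8.72 in shGFP and 21.9 and 23.8 in shTRPV4, close to the offset (0.29, −0.51 to 1.09). For this gene the shGFP replicates lay further apart than the group means.

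The linker proteins of basement membranes had negative differences and 0 of 3 were called (1 at an unadjusted p under 0.05 in limma). Nid1, a nidogen that bridges laminin and collagen IV, read 9010 ± 303 and 8017 ± 6.67 (−0.24, SE 0.08, adjusted p = 0.14), and −0.35 on its other probe set (adjusted p = 0.055). Nid2 differed by −0.01 and Hspg2, the gene of the heparan sulfate proteoglycan perlecan, by −0.11 (95% interval −0.35 to 0.13). With the values as deposited Nid2 was at 0.0038.

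Among the genes of collagen-modifying proteins, the lysyl oxidases and the hydroxylases lay on opposite sides of 0, and the difference between these classes was not tested. Of the 8, 2 were called lower, both lysyl oxidase genes, and 0 higher. All 8 showed no overlap between the groups, 5 higher and 3 lower in shTRPV4, against 60.9% of all genes in either direction. Lox, which starts the cross-linking of collagen and elastin, was the brightest of them and read 11576 and 12484 in shGFP and 9332 and 9848 in shTRPV4. It fell by 0.39 (SE 0.06, limma adjusted p = 0.049). Its second bright probe set gave −0.63 (adjusted p = 0.056). Another, at 5.52 to 47.5 on the arrays, had the opposite sign (1.10, adjusted p = 0.089), and the mean of the 3 differed by 0.03. Loxl1, a lysyl oxidase needed for elastic fibres, read 3599 and 3803 in shGFP and 2706 and 2842 in shTRPV4. Both shTRPV4 arrays lay below, a fall of 0.42 (SE 0.06, adjusted p = 0.040). Neither Lox nor Loxl1 was called with the values as deposited (−0.33 and −0.41) or median centred (−0.23 and −0.32). The 2 lysyl oxidase genes outside the member list, Loxl3 and Loxl4, were lower as well: Loxl3 fell from 1059 ± 12.8 to 734 ± 23.9 (−0.49, adjusted p = 0.033) and Loxl4 from 297 ± 6.12 to 186 ± 21.1 (−0.58, adjusted p = 0.045, and −0.41 with adjusted p = 0.072 on its dimmer probe set). Both were called under all 3 scalings on their brightest probe sets, and neither with an offset of 1.

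The hydroxylases act before secretion. Plod1 and Plod2 hydroxylate lysines, the residues that are later cross-linked or glycosylated. P4ha1 and P4ha2 are the catalytic subunits of prolyl 4-hydroxylase, which makes the triple helix stable at body temperature. Plod2 read 2232 and 2669 in shGFP and 3281 and 3698 in shTRPV4 (0.52, SE 0.11, adjusted p = 0.068). Its second probe set rose by 0.48 (SE 0.07, adjusted p = 0.040). P4ha2 read 4678 and 4940 in shGFP and 6139 and 6165 in shTRPV4 (0.33, SE 0.06, adjusted p = 0.062). Plod1 read 3680 and 4168 in shGFP and 4761 and 4923 in shTRPV4 (0.30, SE 0.07, adjusted p = 0.085). P4ha1 read 5106 and 5160 in shGFP and 6174 and 5924 in shTRPV4 (0.20, SE 0.07, adjusted p = 0.17), and 0.33 on its other probe set (adjusted p = 0.057). So all 4 genes were higher on both shTRPV4 arrays, and 0 of 4 were called on the representative probe set (3 at an unadjusted p under 0.05). With median centring 2 of the 4, Plod2 and P4ha2, were called higher, and with an intensity trend in the variance Plod1 was too.

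Serpinh1, the collagen chaperone HSP47, read 7319 ± 28.4 and 8602 ± 239 (0.17, SE 0.06, adjusted p = 0.18), higher on both shTRPV4 arrays. Pcolce, which speeds the removal of the procollagen C-terminal ends, read 6874 ± 114 and 5779 ± 163 (−0.30, SE 0.07, adjusted p = 0.075), and −0.18 on its other probe set. Eln, the elastin gene, read 160 and 29.0 in shGFP and 173 and 160 in shTRPV4. Only the shGFP replicate 2 array was low, and the difference of 1.08 (SE 0.72, 95% interval −0.97 to 3.13) became 0.09 without it.

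**Figure D3:**
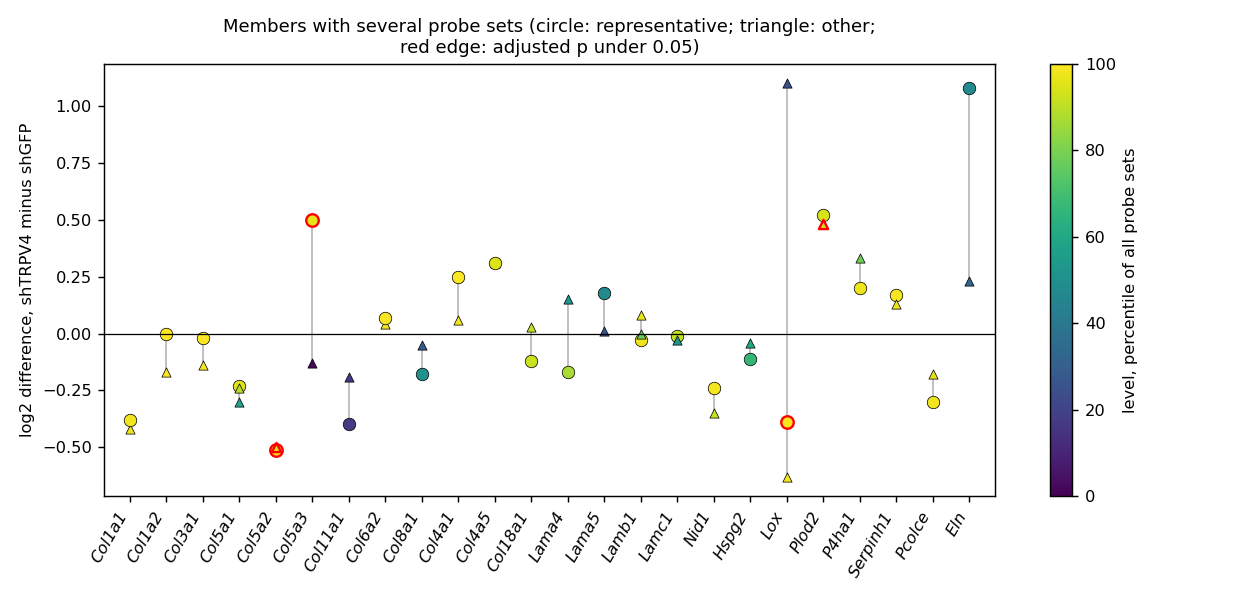
Log2 difference (vertical axis) of every probe set of the 24 members with more than 1, coloured by the level of the probe set as a percentile of all; circles are the representatives, triangles the others, and a red edge marks an adjusted p under 0.05. Most genes have their probe sets close together, while the dim probe sets of Lox and Col5a3 lie on the other side of 0 from the bright ones.

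Taking each probe set by itself, 3 of the 63 were called higher and 5 lower, against 4.54% and 5.36% of all probe sets, or 9.90% in either direction. On the normalized scale the groups did not overlap for 19 that were higher and 27 that were lower. The shares of all probe sets were 31.3% and 27.2%, or 58.5% in either direction. Of the 24 members with several probe sets, 19 had all of them on the same side of 0. The exceptions were Col5a3, Col18a1, Lama4, Lamb1 and Lox. Among members that neighbour each other on the chromosome, Col3a1 and Col5a2 differed by −0.02 and −0.51, and Col6a2 and Col6a1 by 0.07 and 0.09.

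**Figure D4:**
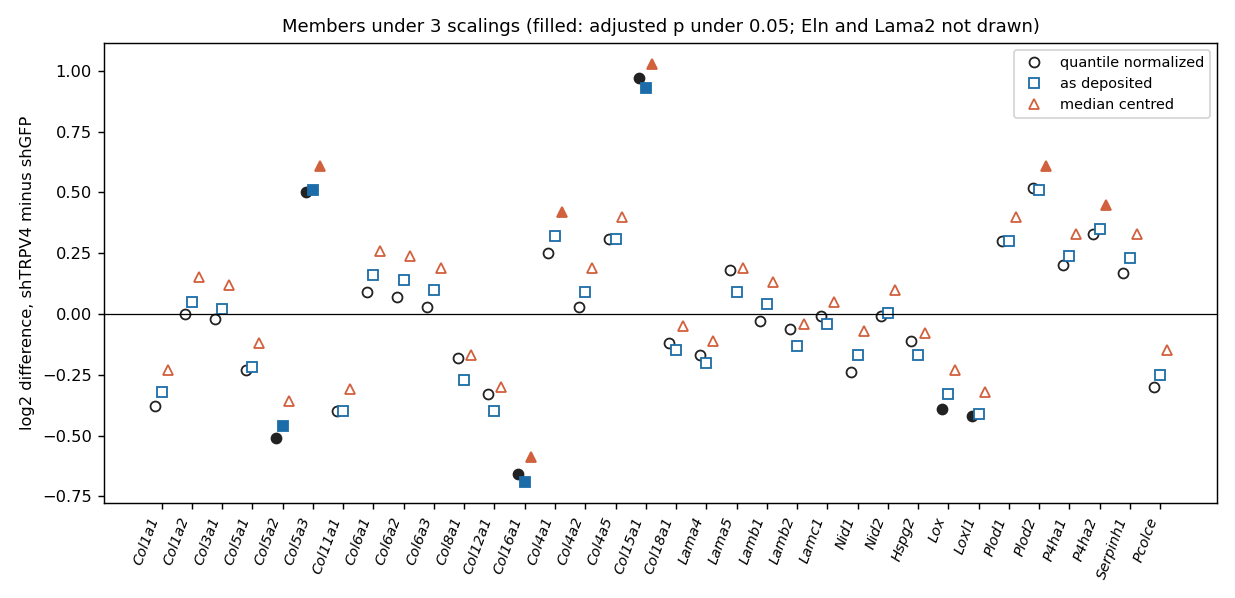
Log2 difference (vertical axis) of the members other than Eln and Lama2 under quantile normalization, with the values as deposited and with each array centred on its median; filled symbols passed the adjusted p of 0.05. Median centring moves the members up (21 of all 36 are positive instead of 16), and Col15a1, Col5a3 and Col16a1 are the members filled under all 3.

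The split of the called members depended on scaling. It was 2 higher and 4 lower after quantile normalization, 2 and 2 as deposited, and 5 and 1 with median centring, with member medians of −0.01, 0.03 and 0.13. Over all genes the corresponding splits were 661 and 744, 380 and 718, and 1036 and 708, with medians of 0.02, −0.01 and 0.09. Col15a1, Col5a3 and Col16a1 were called under each of the 3.

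Other genes of the matrix were taken from lists grouped by function, which were chosen with earlier results of these data known. The processing of procollagen outside the member list included the gene with the largest fall on these lists. Of 16 other collagen processing genes, 5 were lower and 0 higher (median −0.05, and 0.02 with median centring, where 2 were higher). Over all genes 5.33% were called higher and 6.0% lower, the shares to set beside the counts of this and the following lists. Bmp1, the protease that cuts off the procollagen C-terminal ends and the partner of Pcolce, read 402 and 453 in shGFP and 148 and 139 in shTRPV4. It fell by 1.40 (SE 0.08, limma adjusted p = 0.0155). Its dimmer probe sets gave −0.85 (adjusted p = 0.064) and −0.03 (adjusted p = 0.92). Sec23a, a coat protein of the vesicles that carry procollagen out of the endoplasmic reticulum, fell from 3797 ± 106 to 1980 ± 86.2 (−0.92, SE 0.09, adjusted p = 0.023). The prolyl 3-hydroxylase gene P3h3 fell too (−0.58, adjusted p = 0.043), a call lost as deposited. With an offset of 1 Bmp1 was still called, and Sec23a and P3h3 were not. The remaining lysyl hydroxylase, Plod3, and the beta subunit gene of prolyl 4-hydroxylase, P4hb, differed by 0.31 and 0.23 (adjusted p = 0.084 and 0.11).

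Elastic fibre genes beyond Eln were mostly negative. Of 13, 4 were lower and 1 higher, with a median of −0.31 (−0.25 as deposited, −0.16 with median centring) against 0.02 for all genes. The microfibril genes Mfap5 and Mfap2 fell by 1.36 (SE 0.10, adjusted p = 0.017) and 0.87 (SE 0.07, adjusted p = 0.018). Mfap5 went from 468 ± 57.3 to 165 ± 7.54, and its dimmer probe set fell by 0.55 (adjusted p = 0.034). Fbln5, which helps to assemble elastin, fell by 0.83 (adjusted p = 0.036), and Ltbp2, a microfibril-bound relative of the fibrillins, fell from 5621 ± 9.96 to 3321 ± 95.4 (−0.78, adjusted p = 0.021). Ltbp1, which holds latent TGF-beta in the matrix, went the other way, from 767 ± 64 to 1434 ± 93.3 (0.93, SE 0.10, adjusted p = 0.025). These 5 calls were kept as deposited and with median centring, but with an offset of 1 those of Fbln5, Ltbp1 and Ltbp2 were lost.

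Of 13 other basement membrane genes, 2 were higher and 0 lower (median −0.16). Smoc1, a calcium-binding protein of basement membranes, rose from 146 ± 2.43 to 333 ± 25.6 (1.18, SE 0.09, adjusted p = 0.019), and Lamb3, an epithelial laminin chain, from 33.3 ± 0.184 to 82.4 ± 10.0 (1.05, SE 0.09, adjusted p = 0.021). Sparc, a collagen-binding protein, differed by 0.01. Of 18 collagen genes outside the members, 0 were called (2 at an unadjusted p under 0.05 in limma), all 18 below the median level of the probe sets. Of 7 genes listed as collagen receptors 0 were called (2 at an unadjusted p under 0.05 in limma). The list included Endod1 (−0.02), which is not a collagen receptor. Mrc2, an endocytic collagen receptor, was at 0.37 (adjusted p = 0.078) and Ddr1, a collagen-binding kinase, at 0.32 (adjusted p = 0.088). Median centring called 1 of the 7 higher. In the TGF-beta pathway, a main inducer of collagen genes, 1 of 15 was higher and 1 lower: the receptor gene Tgfbr1 rose by 0.56 (SE 0.09, adjusted p = 0.046) and Tgfbi, a TGF-beta-induced matrix protein, fell by 0.61 (SE 0.07, adjusted p = 0.029), and neither was called with an offset of 1. The ligand genes Tgfb1, Tgfb2 and Tgfb3 differed by 0.28, −0.27 and 0.01 and were not called.

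**Figure D5:**
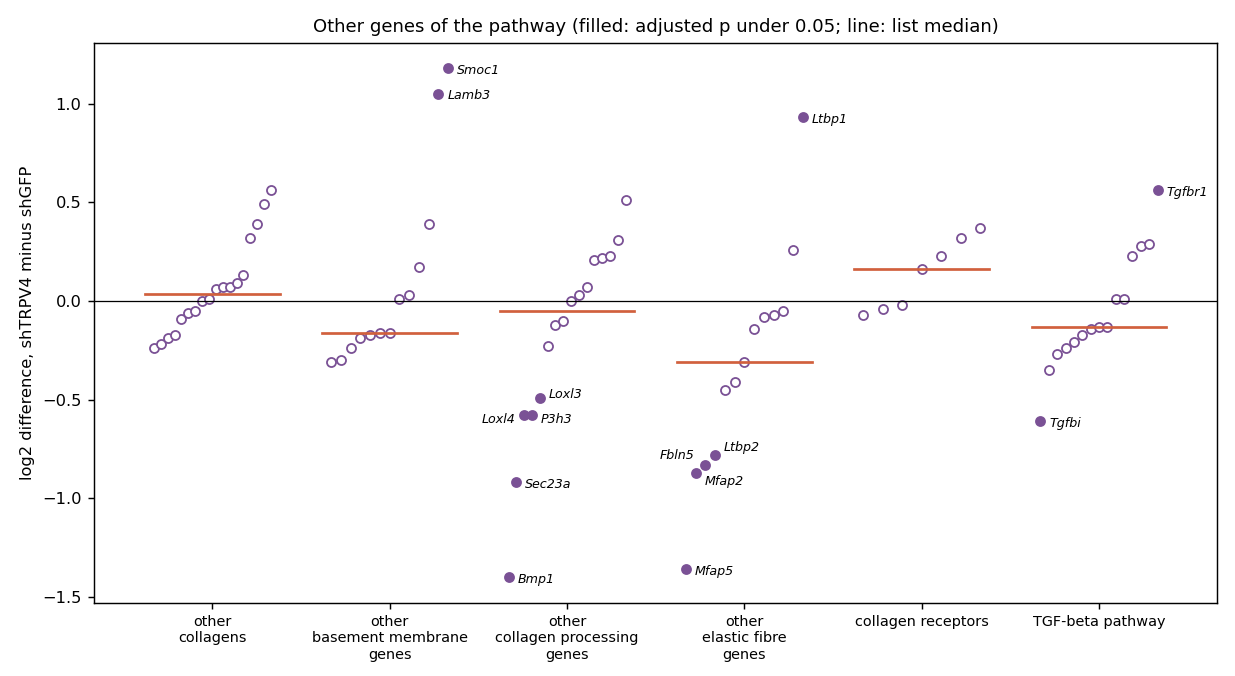
Log2 difference (vertical axis) of the genes of 6 further lists; filled points with a name passed the adjusted p of 0.05, and the line is the list median. The called genes of collagen processing lie below 0, those of the elastic fibre list below 0 apart from Ltbp1, and the other collagens and receptors have no filled point.

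The precision is limited by the 2 arrays per group. With any 1 array left out, or with replicate number as a block, limma called 0 members and 0 genes at 1 residual degree of freedom, with 9 to 16 members and 2683 to 4029 genes at an unadjusted p under 0.05. The 6 called members kept the sign of their difference in each of these fits.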

How the data were processed

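The authors deposited 1 linear intensity per probe set and array. How these were summarised, background-corrected and scaled, and on which build, is stated in no source used here. Detection calls were not used. Array medians ran from 129.4 to 144.0. Intensities were taken as log2(intensity + 16), an offset of 16, and quantile normalized, because the array medians spanned 0.14 on that scale. The comparison was fitted over all 22626 probe sets by lmFit and eBayes of limma 3.58.1 under R 4.3.3 (no intensity trend, 2 residual and 1.80 prior degrees of freedom). The code was also run on simulated data. The changes put in there were larger than those of nearly all members, so that run says nothing of differences of their size. A call needs an adjusted p (Benjamini-Hochberg, all probe sets) under 0.05. Genes were named from the platform annotation (20380 probe sets with 1 gene, 691 with several, 1555 unnamed), and list symbols were matched through RefSeq synonyms (GRCm38.p6). A gene is represented by the probe set with the highest mean over all arrays. All members are named, with array values for those called, the brightest and the 2 with the largest difference in each role group, and every called gene of the further lists is named. Upstream sequences come from RefSeq, and windows were kept for 27 of the 38 members. Entries on 1 chromosome were skipped, so a member without a window may still have a RefSeq start. The members and lists were chosen with earlier results of these data known. Alternatives changed the scaling, the offset (1 or 64), a filter on dim probe sets, the variance trend, the probe set rule, a replicate block and 1 array at a time.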

Additional observations from a re-analysis of the deposited data

How the results depend on the processing

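The counts of called genes moved with nearly every setting, while the signs of the 6 called members held in all 14, apart from Lox on the mean of its probe sets (0.03). With the values as deposited, 2 members were called lower (3 probe sets lower), 0 of the modifying proteins, and 380 genes higher. With median centring 5 members were called higher and 1 lower (7 and 1 probe sets), with 0 fibrillar genes lower, 2 basement membrane genes higher and 2 modifying genes higher and 0 lower, and 1036 genes higher. An offset of 1 called 0 members and 0 member probe sets in either direction, so 0 in each role group, and 116 genes higher and 271 lower (14 members and 3747 genes at an unadjusted p under 0.05 in limma). An offset of 64 called 7 members higher and 6 lower (9 probe sets higher and 11 lower), 2 fibrillar genes lower, 3 basement membrane genes higher and 3 modifying genes in each direction, and 1356 genes higher and 1221 lower. A filter that removed probe sets below the 25th percentile of level called 6 members higher and 6 lower (8 and 11 probe sets), 2 fibrillar genes lower, 2 basement membrane genes higher and 3 modifying genes in each direction, and 1298 and 1189 genes. With those under the 50th percentile left out, which tests fewer probe sets, 7 members were higher and 8 lower (10 and 14 probe sets), 3 fibrillar genes lower, 3 basement membrane genes higher and 1 lower, 3 modifying genes in each direction, and 1714 and 1370 genes. An intensity trend gave 7 higher and 8 lower (10 and 13 probe sets), 3 fibrillar genes lower, 3 basement membrane genes higher and 1 lower, 3 modifying genes in each direction, and 1408 and 1236 genes. On the mean of a gene's probe sets 0 fibrillar genes were higher and 2 lower, and 2 modifying genes were higher and 1 lower. The replicate block called 0 members, 0 member probe sets and 0 genes in every group and direction, with 4029 genes at an unadjusted p under 0.05. The labels give no shared source for arrays of the same replicate number, and whether they share a batch is unknown: the differences between replicates 1 and 2 of the 2 groups correlated at 0.12 over 22626 probe sets. Each count was also 0 to 0 with any 1 array left out. The cause of these moves was not tested. The fits with a replicate block or with an array left out had 1 residual degree of freedom, and the offset of 1 kept 2.

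Some uncalled members changed sign. As deposited these were Col1a2 (0.05), Col3a1 (0.02), Lamb1 (0.04) and Nid2 (0.0038), and with median centring Col1a2 (0.15), Col3a1 (0.12), Lamb1 (0.13), Lamc1 (0.05) and Nid2 (0.10). On other probe sets Col18a1 (0.03) and Lamb1 (0.08) did so, as did Lamb1 on the mean (0.02). With an array left out, Col1a2 ran from −0.03 to 0.03 (0.02 without replicate 2 of shGFP), Col6a3 from −0.0042 to 0.06, Col4a2 from −0.01 to 0.07, Lama2 from −0.09 to 0.66, Lamc1 from −0.06 to 0.04 (0.02 without replicate 2 of shTRPV4) and Nid2 from −0.06 to 0.04. Without detection calls no background level is known, which limits what can be said of dim genes such as Col11a1, Lama2 and Eln.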

Other observations

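A probe set that the platform annotation assigns to both Gm21451 and Loxl2, and that was left out of every count above, read 57.1 and 68.2 in shGFP and 28.5 and 32.5 in shTRPV4. It differed by −0.70 (SE 0.10, limma adjusted p = 0.039), and its reading cannot be given to either gene.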
